A study of Drosophila melanogaster with 12 samples.

Results

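The effect of CP190 depletion was examined in Kc cells that had spent 48 h in the steroid hormone 20-hydroxyecdysone (20HE). The comparison rests on 4 of the 12 arrays of the series, chosen by their titles: 2 arrays of cells with RNAi against CP190 at 48 h of 20HE, and 2 arrays of cells with RNAi against beta-galactosidase, the control target, at the same time. All 4 cultures had received both an RNAi and the hormone, so what is read is the difference that the CP190 RNAi makes in cells already exposed to 20HE. The remaining 8 arrays hold the same 2 RNAi treatments at 0 h and 3 h of 20HE, again with 2 biological replicates each. Kc is an established line of embryonic Drosophila melanogaster cells. The extraction protocol also mentions a second line, Mbn2, while the 4 titles name only Kc, and markers of blood cells, neurons, muscle and fat body could not be looked up to check the identity. The level of the Cp190 transcript could not be looked up either, so how far it was depleted is not known here.

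CP190 is a zinc finger and BTB-domain protein that binds insulators, the DNA elements that separate neighbouring regulatory regions, together with partners such as CTCF, Su(Hw) and BEAF-32. It also sits at many active promoters. 20HE enters cells and binds the EcR and Usp nuclear receptor pair, which switches on a small set of early genes, many encoding transcription factors, and these in turn set the expression of a far larger set of late genes. Kc cells respond to 20HE by ceasing to divide and changing shape. At 48 h the late part of this programme is being read.

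Each array gave 1 intensity for each of 16637 FlyBase transcript identifiers and for 1 random-sequence control, which marks the background. On the 4 arrays at 48 h the random control read between 413 and 414, and array medians lay between 1207 and 1227. The number of arrays limits the precision. Replicate arrays correlated across transcripts with r = 0.996 for CP190 RNAi and 0.997 for control RNAi. The SD of their log2 difference was 0.176 for CP190 RNAi and 0.155 for control RNAi. Within 1.5-fold of the random control on all 4 arrays lay 5815 transcripts, and 7111 were over 4-fold above it on all 4. The identifiers carry no gene names in the table, and a RefSeq gene table named 16 of them, so most transcripts below appear by identifier, at most 2 in each direction for each comparison.

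At 48 h of 20HE, 863 transcripts differed between CP190 RNAi and control RNAi cells at an adjusted p under 0.05 (limma, Benjamini-Hochberg over 16637 transcripts), which is 5.19% of those tested. Of these, 527 were higher after CP190 RNAi (3.17%) and 336 were lower (2.02%). The typical difference was modest. The median log2 change was 0.64 among the higher and -0.63 among the lower transcripts, beside -0.0067 for all transcripts. At least 2-fold differences numbered 179 (1.08%), of which 105 were higher and 74 lower, while at least 4-fold differences numbered 6 and 9. At the other end, 376 of the 863 (43.6%) differed by less than 1.5-fold, and the smallest change called was 0.29 on the log2 scale. The arrays of the 2 groups did not overlap for any of the 863, nor for 47.1% of all transcripts. Pairing replicates by their number, as a block in the fit, gave 1654 transcripts (9.94%), 900 higher (5.41%) and 754 lower (4.53%). Dropping the first control array left 483 (273 higher, 210 lower), dropping the second control array left 484 (302 and 182), and dropping the first CP190 array left 500 (301 and 199).

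**Figure D1:**
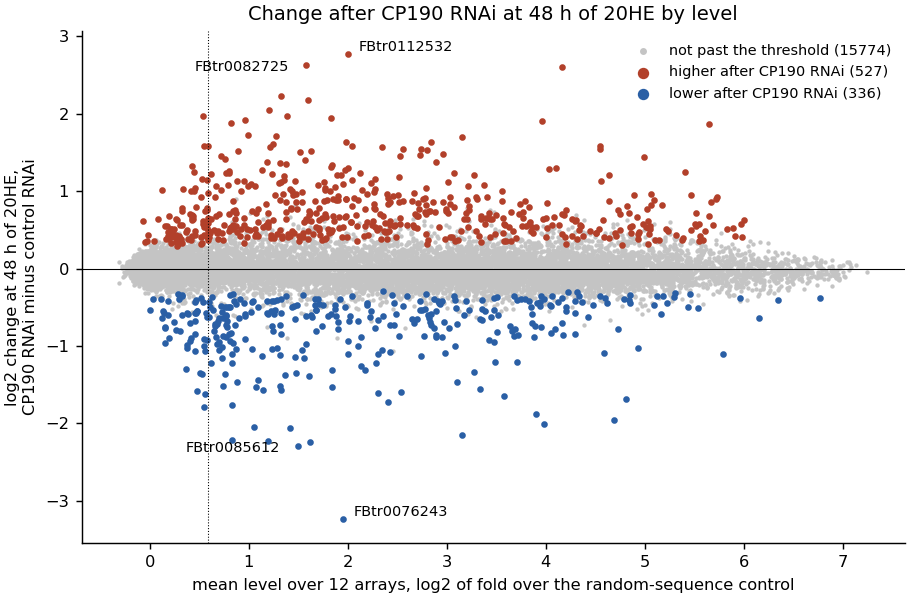
The vertical axis gives the log2 change between CP190 RNAi and control RNAi cells at 48 h of 20HE, and the horizontal axis gives each transcript's mean level over 12 arrays as the log2 of its fold over the random-sequence control, with a dotted line at 1.5-fold. The 527 transcripts that were higher (red) and 336 that were lower (blue) lie across most of the range of levels, and 15774 (grey) did not pass the threshold.

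The largest rise was that of FBtr0112532. It read 4116 and 3930 after CP190 RNAi, against 564 and 619 after control RNAi. Both control values lay within 1.5-fold of the random control, and neither CP190 value did. The log2 change was 2.77 ± 0.14 (SE, adjusted p = 9.12e-07), or at least 6.81-fold between the geometric means of the arrays, a lower bound because background adds to the dim signal. This transcript was also higher without hormone, at 4514 and 3572 in CP190 RNAi cells, against 949 and 867 in control RNAi cells at 0 h. The difference of the effect between 48 h and 0 h was 0.62 ± 0.20 (adjusted p = 0.218), so a change in the size of this effect over time was not detected without the block. With the replicate block its adjusted p was 0.0383.

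FBtr0082725 had the second largest rise. Its intensities were 5800 and 7364 in CP190 RNAi cells, against 818 and 1368 in control RNAi cells, a log2 change of 2.63 ± 0.19 (6.18-fold, adjusted p = 8.47e-06). The replicates of each group differed, yet the lower CP190 array was far above the higher control array. At 0 h it read 1602 and 1431 in CP190 RNAi cells, against 551 and 592 in control RNAi cells. At 3 h it read 1085 and 1228 in CP190 RNAi cells, against 534 and 569 in control RNAi cells. These early control values lay within 1.5-fold of the random control, so the early changes are lower bounds. At 48 h control RNAi cells stood at 2.64-fold the random control. The part of background in the differences between times was not tested. The effect was larger at 48 h than at 3 h by 1.56 ± 0.27 (adjusted p = 0.0115), a call lost without CP190 3 h replicate 1 (adjusted p = 0.0634). The difference from 0 h was 1.22 ± 0.27 (adjusted p = 0.0439). It was no longer past the threshold when only the 8 arrays at 0 and 48 h were fitted (0.0894). Dropping 1 of these 8 arrays also lost the call (0.0744 to 0.168), unless it was the first CP190 or the second control array at 48 h.

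FBtr0076243 showed the largest fall. It read 1354 and 1288 after CP190 RNAi, against 15277 and 10208 after control RNAi at 48 h. The log2 change was -3.24 ± 0.18 (9.46-fold lower, adjusted p = 1.19e-06). The gap between the groups was wider than at the earlier times. At 0 h the values were 785 and 1060 in CP190 RNAi cells, against 1542 and 1518 in control RNAi cells, and at 3 h 693 and 864 in CP190 RNAi cells, against 1005 and 992 in control RNAi cells. The log2 change was -0.75 at 0 h (adjusted p = 0.0282) and -0.37 at 3 h (adjusted p = 0.311). The transcript stood highest at 48 h in both RNAi groups. In CP190 RNAi cells it read between 693 and 1354 on all 6 arrays, with 1354 and 1288 at 48 h. The effect at 48 h differed from that at 0 h by -2.49 ± 0.26 on the log2 scale (adjusted p = 5.26e-04) and from that at 3 h by -2.87 ± 0.26 (adjusted p = 2.24e-04).

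FBtr0085612 fell next most. Its intensities were 1211 and 1154 in CP190 RNAi cells, against 4679 and 7178 in control RNAi cells, a log2 change of -2.29 ± 0.21 (4.90-fold lower, adjusted p = 4.73e-05). Without hormone the order was the other way round, at 1047 and 866 in CP190 RNAi cells, against 583 and 612 in control RNAi cells, though that difference did not pass the threshold (log2 change 0.67, adjusted p = 0.0811). With the replicate block it did (adjusted p = 0.0296). At 3 h it passed without the block, with a log2 change of 0.85 (adjusted p = 0.0337). The values in CP190 RNAi cells lay between 866 and 1372 on all 6 arrays, and control RNAi cells read 654 or less on the 4 arrays before 48 h. Both control RNAi values at 0 h lay within 1.5-fold of the random control, so background limits the size of the 0 h change. The effect differed between 48 h and 0 h by -2.97 ± 0.30 (adjusted p = 4.39e-04).

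**Figure D2:**
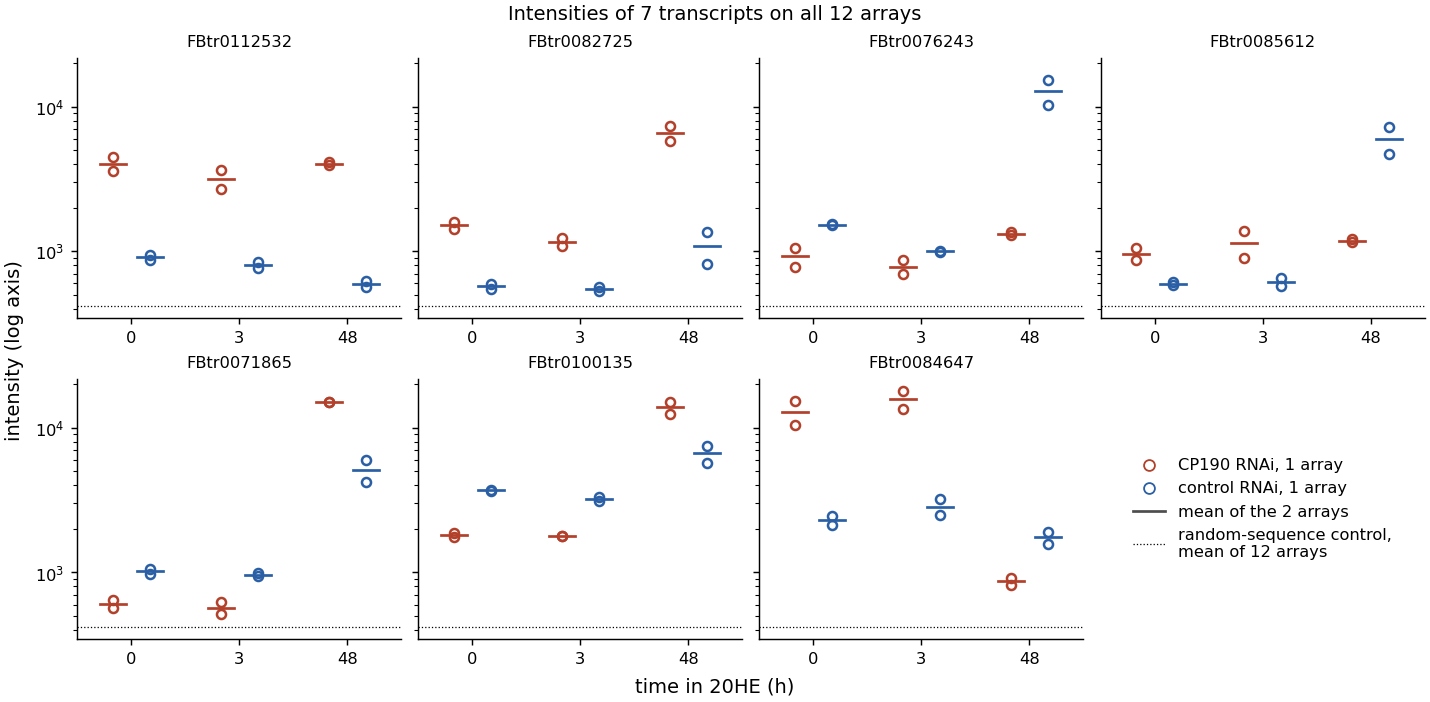
Each panel shows 1 transcript, with intensity on a log axis against hours in 20HE, circles for single arrays (red CP190 RNAi, blue control RNAi) and bars for the mean of 2 arrays, and a dotted line at the random-sequence control. FBtr0112532 is higher in CP190 RNAi cells at all 3 times, FBtr0076243 is far lower in them at 48 h, where control RNAi cells read 15277 and 10208, and FBtr0085612, FBtr0071865, FBtr0100135 and FBtr0084647 change order between the early times and 48 h.

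Calls depended on the level of a transcript. Among the 6327 transcripts whose mean over 12 arrays was under 1.5-fold of the random control, 2.01% were called, with 77 higher and 50 lower. These 127 became 78, 79 and 83 without the second control, first control and first CP190 array at 48 h. The share was highest just above background, at 11.1% of 1029 transcripts between 1.5 and 2-fold, and 203 of 1839 were called between 2 and 4-fold. It was 7.20% between 4 and 8-fold, 5.42% between 8 and 16-fold, 4.83% between 16 and 32-fold and 4.46% of the 1277 brightest. Higher calls outnumbered lower ones in each of these 7 ranges, as deposited. The ratio was closest to even between 1.5 and 2-fold, with 59 higher and 55 lower, and farthest from it above 32-fold, with 42 and 15. The median size of the called changes was between 0.52 and 0.72 on the log2 scale in all ranges, smallest above 32-fold. Background compresses the fold of dim transcripts, and its part in these shares was not tested.

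**Figure D3:**
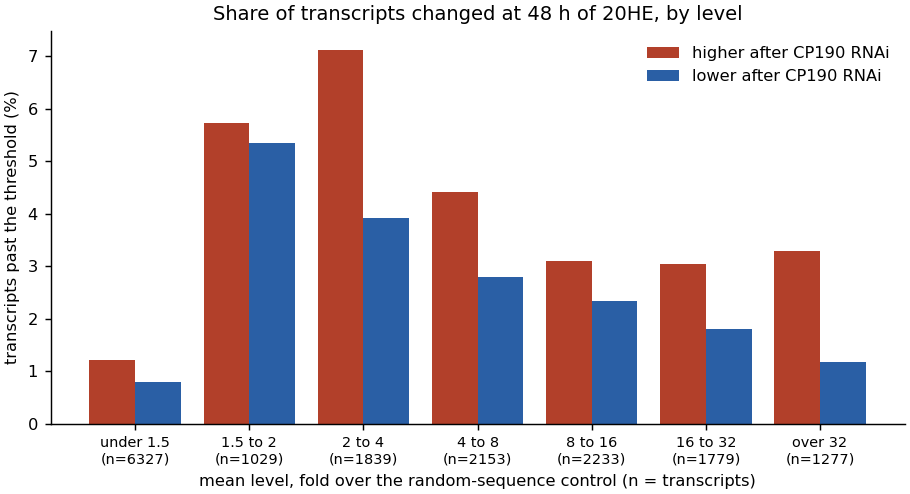
Bars give the percentage of transcripts past the threshold at 48 h, higher (red) or lower (blue) after CP190 RNAi, in 7 ranges of mean level over the random-sequence control, with the number of transcripts under each range. The share of higher calls reaches 7.12% between 2 and 4-fold and that of lower calls 5.34% between 1.5 and 2-fold, against 1.22% and 0.79% near background.

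Very few transcripts crossed from background to a clear signal. At 48 h, 4 transcripts were within 1.5-fold of the random control on both control RNAi arrays and over 4-fold above it on both CP190 RNAi arrays, and 1 transcript did the reverse. FBtr0112532, described above, is 1 of the 4. FBtr0080239 is another, at 2599 and 2197 in CP190 RNAi cells, against 514 and 504 in control RNAi cells (log2 change 2.23 ± 0.12, at least 4.70-fold, adjusted p = 1.04e-06). Its effect was of like size at the other times, with log2 changes of 1.85 at 0 h and 1.93 at 3 h. The 1 transcript of the reverse kind, FBtr0085463, read 576 and 544 in CP190 RNAi cells, against 2003 and 1849 in control RNAi cells (log2 change -1.78 ± 0.080, at least 3.44-fold lower, adjusted p = 5.34e-07). It lay near background in both RNAi groups at 0 h, at 456 and 460 after CP190 RNAi, against 436 and 466 after control RNAi, so the control cells carried a clear signal at 48 h that CP190 RNAi cells did not. With looser limits of 2-fold and 3-fold, 26 transcripts were at background in control RNAi cells only and 12 in CP190 RNAi cells only.

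The 48 h changes were set against those measured at 0 h and 3 h, which come from other arrays. The calls are not independent, because the same fit gave each transcript a common variance for all times. A transcript with a low estimated variance passes more easily at every time. How far this raises the overlaps of calls was not tested. Without hormone 1221 transcripts differed (7.34%), 740 higher (4.45%) and 481 lower (2.89%), and at 3 h 1033 differed (6.21%), 721 higher (4.33%) and 312 lower (1.88%), or 622 and 473 with arrays centred on their medians. Dropping single arrays took these totals as low as 537 at 0 h (first CP190 array) and 460 at 3 h (first CP190 array). Across transcripts, which are not independent, the 48 h effects correlated with those at 0 h by 0.466 and with those at 3 h by 0.450. Of the 527 transcripts higher at 48 h, 203 (38.5%) were also higher at 0 h, 196 (37.2%) at 3 h and 180 (34.2%) at both. Of the 336 lower at 48 h, 114 (33.9%) were also lower at 0 h, 91 (27.1%) at 3 h and 80 (23.8%) at both. The 317 transcripts shared with 0 h became 186, 193 and 194, and the 287 shared with 3 h became 171, 176 and 172, on dropping the first control, second control and first CP190 array at 48 h. Called at neither earlier time were 301 of the higher transcripts (57.1%) and 199 of the lower (59.2%), which by itself does not show that their effects differ between times.

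Read the other way, most of the earlier changes were not past the threshold at 48 h. The common variance bears on these shares of calls too. Of the 740 transcripts higher at 0 h, 27.4% were higher at 48 h, beside a background of 3.17%, and 6 (0.811%) were lower, beside 2.02%. Their median log2 change was 0.65 at 0 h, 0.61 at 3 h and 0.24 at 48 h. The 0 h median comes from the arrays that chose the set. At 3 h, 76.8% of the 740 were called higher. Of the 481 transcripts lower at 0 h, 23.7% were lower at 48 h, beside a background of 2.02%, and 4 (0.832%) were higher, beside 3.17%. Their median was -0.46 at 0 h, -0.37 at 3 h and -0.20 at 48 h, and 44.9% of the 481 were called lower at 3 h. The sets from 3 h had similar shares, with 27.2% of 721 higher and 29.2% of 312 lower transcripts called the same way at 48 h. The sign at 48 h was the same as at the earlier time for 84.0 to 89.8% of each of these 4 sets. The share of all transcripts with the same sign is not given here, so how far these sets exceed it is not known.

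FBtr0086519, with the largest fall at 0 h and at 3 h, had a fall of much the same size at 48 h. It read 1623 and 1922 in CP190 RNAi cells, against 7229 and 8556 in control RNAi cells at 48 h (log2 change -2.15 ± 0.11, 4.45-fold lower, adjusted p = 9.12e-07). At 0 h it read 1617 and 1775 in CP190 RNAi cells, against 8735 and 7428 in control RNAi cells. The effects at 48 h and 0 h differed by 0.095 ± 0.16 (adjusted p = 0.95). FBtr0081748 and FBtr0081747, the next largest falls at 0 h and at 3 h, remained lower at 48 h, with log2 changes of -1.53 ± 0.11 and -1.44 ± 0.12 (adjusted p of 7.07e-06 and 2.15e-05). Both lay near the random control on both CP190 RNAi arrays, so these sizes are lower bounds.

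FBtr0083324 and FBtr0083371, which had the largest rises at 0 h and 3 h, were closer between the RNAi groups at 48 h. FBtr0083324 read 2720 and 2867 after CP190 RNAi, against 1609 and 1925 after control RNAi at 48 h, a log2 change of 0.67 ± 0.13 (adjusted p = 0.00981). That call was lost without control 48 h replicate 1 (adjusted p = 0.11) or CP190 48 h replicate 2 (0.0702). At 0 h it had read 3586 and 3896 in CP190 RNAi cells, against 474 and 564 in control RNAi cells. Both of these control values lay within 1.5-fold of the random control, so the 0 h change is a lower bound. The effect at 48 h differed from that at 0 h by -2.19 ± 0.18 on the log2 scale (adjusted p = 1.55e-04). FBtr0083371 read 25678 and 26173 in CP190 RNAi cells at 48 h, against 19290 and 21913 in control RNAi cells. This difference did not pass the threshold (log2 change 0.33, 95% interval -0.23 to 0.90, adjusted p = 0.627). At 0 h its values were 11588 and 6720 in CP190 RNAi cells, against 1618 and 1175 in control RNAi cells. Both transcripts read higher at 48 h than at 0 h on both control RNAi arrays. In CP190 RNAi cells FBtr0083371 also read higher at 48 h than at 0 h, while FBtr0083324 read lower.

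The difference of the effects was tested directly. Against 0 h, 363 transcripts passed (2.18%), 137 with a higher effect at 48 h (0.823%) and 226 with a lower one (1.36%). Against 3 h, 327 passed (1.97%), 135 higher (0.811%) and 192 lower (1.15%). These 2 tests share the 48 h arrays, and 98 higher and 168 lower transcripts passed both. With the replicate block, 725 (4.36%) passed against 0 h and 760 (4.57%) against 3 h. Dropping the second control array at 48 h left 192 and 193. Against 0 h, 227 passed on dropping the first control array at 48 h, 239 on dropping the second CP190 array at 48 h and 196 on dropping the first CP190 array at 0 h. Against 3 h, 203 were left by dropping the first control array at 3 h and 184 by dropping the first CP190 array at 3 h.

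Of the 226 transcripts with a lower effect at 48 h than at 0 h, 94 were lower after CP190 RNAi at 48 h. Another 123 were not called at 48 h, and 120 of these had been higher at 0 h, so that an early rise was no longer past the threshold. The remaining 9 were still higher at 48 h. Of the 137 with a higher effect, 100 were higher at 48 h, 35 were not called, 30 of them lower at 0 h, and 2 were still lower at 48 h. Of the 527 transcripts higher at 48 h, 76 had an effect above both earlier times, and 62 of these were called at neither. Of the 336 lower at 48 h, 73 had an effect below both earlier times, and 51 of these were called at neither. The tests use the same 48 h arrays that gave the 527 and 336 calls, so they are not independent of that choice. The difference from 0 h also uses the 0 h arrays, so the 120 and 30 calls at 0 h largely follow from it.

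Some transcripts were called in opposite directions at an earlier time and at 48 h. Of the 740 higher at 0 h, 6 (0.811%) were lower at 48 h, and of the 481 lower at 0 h, 4 (0.832%) were higher. Another count, against 3 h, gave 12 of 721 (1.66%) that were higher at 3 h and lower at 48 h, FBtr0085612 among them. Of the 312 lower at 3 h, 6 (1.92%) were higher at 48 h. These shares were below those of all transcripts at 48 h, 2.02% lower and 3.17% higher. For each transcript called in opposite directions the difference of effects passed the threshold as well. Opposite effects add up in that difference, which uses the same arrays, so its passing gives no further evidence. FBtr0084647 had the largest difference of all. It read 916 and 824 after CP190 RNAi, against 1580 and 1917 after control RNAi at 48 h (log2 change -1.002 ± 0.19, adjusted p = 0.00956), a call lost without control 48 h replicate 2 (adjusted p = 0.113) or CP190 48 h replicate 2 (0.0717). At 0 h it had read 15324 and 10490 in CP190 RNAi cells, against 2469 and 2139 in control RNAi cells (log2 change 2.46). The effect at 48 h differed from that at 0 h by -3.47 ± 0.27 (adjusted p = 1.25e-04). In CP190 RNAi cells the transcript read 10490 or more on every array before 48 h, above all control RNAi arrays, and at 48 h it read below both.

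FBtr0071865 turned the opposite way. It read 15123 and 15116 in CP190 RNAi cells, against 4235 and 5975 in control RNAi cells at 48 h, a log2 change of 1.59 ± 0.15 (3.01-fold, adjusted p = 5.08e-05). At 0 h it read 569 and 642 in CP190 RNAi cells, against 1058 and 983 in control RNAi cells, a log2 change of -0.75 (adjusted p = 0.00862). The first of these CP190 RNAi values lay within 1.5-fold of the random control, so background limits the size of this change. The effects differed by 2.34 ± 0.21 (adjusted p = 2.04e-04). FBtr0100135 followed the same course, at 12549 and 15091 in CP190 RNAi cells, against 5757 and 7544 in control RNAi cells at 48 h (log2 change 1.06 ± 0.12, adjusted p = 2.78e-04), and with a log2 change of -1.03 at 0 h. FBtr0086699, second by its difference from 3 h, read 8406 and 11366 in CP190 RNAi cells, against 2961 and 5036 in control RNAi cells (log2 change 1.34 ± 0.21, adjusted p = 0.00282). At 3 h its log2 change was -0.78, past the threshold with the replicate block (adjusted p = 0.00318) and not without it (0.0564). All 3 were brighter at 48 h than at 0 h on every array of both RNAi groups.

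**Figure D4:**
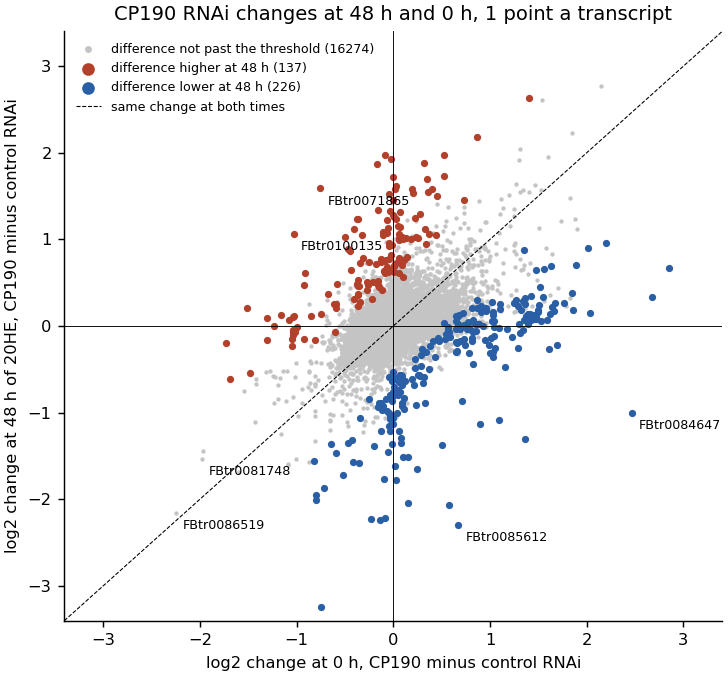
Each point is 1 transcript, with its log2 change between CP190 RNAi and control RNAi cells at 48 h of 20HE on the vertical axis and at 0 h on the horizontal axis, and the dashed line marks equal changes. Transcripts whose effect was higher at 48 h (137, red) or lower (226, blue) spread along both axes, FBtr0086519 lies near the dashed line, and FBtr0084647 lies at 2.46 on the horizontal and -1.002 on the vertical axis.

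Transcripts of the early hormone response were then looked up, chosen by the contrast of the 3 h and 0 h control RNAi arrays in the model whose variance all 12 arrays set. In control RNAi cells 218 transcripts changed after 3 h of 20HE (1.31%), 159 higher (0.956%) and 59 lower (0.355%). At 48 h, 20 of the 159 (12.6%) were higher after CP190 RNAi and 11 (6.92%) were lower. Beside them, 3.17% and 2.02% of all transcripts were called, or 4.36% and 2.77% (7.14% together) of the 10310 with a mean at least 1.5-fold above the random control. Of the 59 lowered at 3 h, 5 (8.47%) were higher and 10 (16.9%) were lower after CP190 RNAi at 48 h. The median 48 h effect was 0.089 in the raised and -0.060 in the lowered set. With the replicate block, 56 of the 159 were called at 48 h, in place of 31, beside 9.94% of all transcripts in that fit. The early set itself was less sure, at 89 transcripts with only the control arrays of 0 and 3 h fitted, and at 142 and 135 on dropping the first control array of 0 h and of 3 h.

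The 2 largest early rises and 2 largest early falls did not show a CP190 effect past the threshold at 48 h. FBtr0100515, with the largest rise at 3 h, read 19035 and 17397 in CP190 RNAi cells, against 21381 and 17493 in control RNAi cells at 48 h (log2 change -0.088, 95% interval -0.35 to 0.18, adjusted p = 0.823). FBtr0088368 read 36558 and 32220 in CP190 RNAi cells, against 32896 and 32802 in control RNAi cells (log2 change 0.063, interval -0.15 to 0.28, adjusted p = 0.847). Its arrays overlapped between the groups, as did those of FBtr0100515. The brightest transcript of each 48 h array read 62194 to 65523. FBtr0077877 and FBtr0113039, the largest early falls, had log2 changes of 0.24 (interval -0.17 to 0.65) and 0.091 (interval -0.34 to 0.52) at 48 h. Neither passed, but both were dim at that time. FBtr0113039 lay within 1.5-fold of the random control on all 4 arrays at 48 h, so a CP190 effect on it could not be read. FBtr0077877 stood at 1.68-fold the random control in control RNAi cells and 2.01-fold in CP190 RNAi cells. Earlier effects did pass for both, with a log2 change of 1.04 at 3 h for FBtr0077877 (adjusted p = 0.00553) and -1.31 at 0 h for FBtr0113039 (adjusted p = 0.00182), both measured against control arrays that also chose these transcripts. With the replicate block FBtr0077877 passed at 0 h too (0.44, adjusted p = 0.0144), and so did FBtr0100515 at 3 h (-0.37, adjusted p = 0.0466).

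None of the 16 transcripts with a gene name passed the threshold at 48 h, and the lowest adjusted p was 0.378. With the replicate block none passed either. Their log2 changes ran from -0.23 to 0.15, with 6 above 0 and 10 below, and a median of -0.053. The intervals exclude changes of 1.5-fold in measured intensity for all 16, as the bound farthest from 0 lay at -0.49. For fend and CG31178, near background, the fold is compressed, so a 1.5-fold change of the transcript itself is not excluded.

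Among genes of chromatin, HDAC3, a histone deacetylase that works within a corepressor complex, read 4704 and 5406 in CP190 RNAi cells, against 5622 and 5863 in control RNAi cells. Both CP190 arrays were the lower ones, and the log2 change was -0.19 (95% interval -0.42 to 0.045, adjusted p = 0.46). The gene kis, which encodes a chromatin remodeller of the trithorax group, read 14992 and 16384 after CP190 RNAi, against 15937 and 15567 after control RNAi, with overlapping arrays and a log2 change of -0.0072 (interval -0.20 to 0.18). His4r, a histone H4 gene expressed outside the replication-linked cluster, read 30218 and 29630 after CP190 RNAi, against 31957 and 30340 after control RNAi (log2 change -0.057, interval -0.22 to 0.10). SuUR, whose product slows replication in heterochromatin, had a log2 change of 0.072 (interval -0.16 to 0.30).

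Transport genes were likewise close between the groups at 48 h. Fatp1, a fatty acid transport protein gene, read 5244 and 6246 in CP190 RNAi cells, against 6132 and 6834 in control RNAi cells (log2 change -0.18, interval -0.47 to 0.12, adjusted p = 0.621). NaPi-III, a phosphate transporter gene, read 4213 and 4113 after CP190 RNAi, against 4338 and 3949 after control RNAi, with a log2 change of 0.0083 (interval -0.24 to 0.26). The structural genes LanA and alpha-Spec had higher values in both CP190 arrays without passing the threshold. LanA, the laminin alpha chain of basement membranes, read 47120 and 46959 in CP190 RNAi cells, against 43584 and 45099 in control RNAi cells (log2 change 0.085, interval -0.084 to 0.25). The gene alpha-Spec, for a spectrin of the membrane skeleton, read 20473 and 19197 after CP190 RNAi, against 18771 and 18103 after control RNAi (log2 change 0.10, interval -0.096 to 0.31).

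The gene mio, a component of the GATOR2 complex that acts on TORC1, read 2218 and 2279 in CP190 RNAi cells, against 2354 and 2562 in control RNAi cells (log2 change -0.13, interval -0.30 to 0.049, adjusted p = 0.526). Wdr24, another GATOR2 component, had a log2 change of -0.049 (interval -0.33 to 0.23), so neither member of that complex was called. The lowest value belonged to sle, a nucleolar protein gene, at 14374 and 17711 in CP190 RNAi cells, against 17792 and 19748 in control RNAi cells (log2 change -0.23, interval -0.49 to 0.022, adjusted p = 0.378). The highest belonged to rdx, a substrate adaptor of Cul3 ubiquitin ligases, at 0.15 (interval -0.16 to 0.47). Uba1, the ubiquitin-activating enzyme gene, had a log2 change of 0.029. The genes fend, CG16974 and CG31178 had log2 changes of -0.15, -0.13 and -0.15, with fend and CG31178 near background. SuUR, Wdr24, sle, rdx, Uba1, fend, CG16974 and CG31178 fall outside the rule for named genes and are given because they complete the 16.

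**Figure D5:**
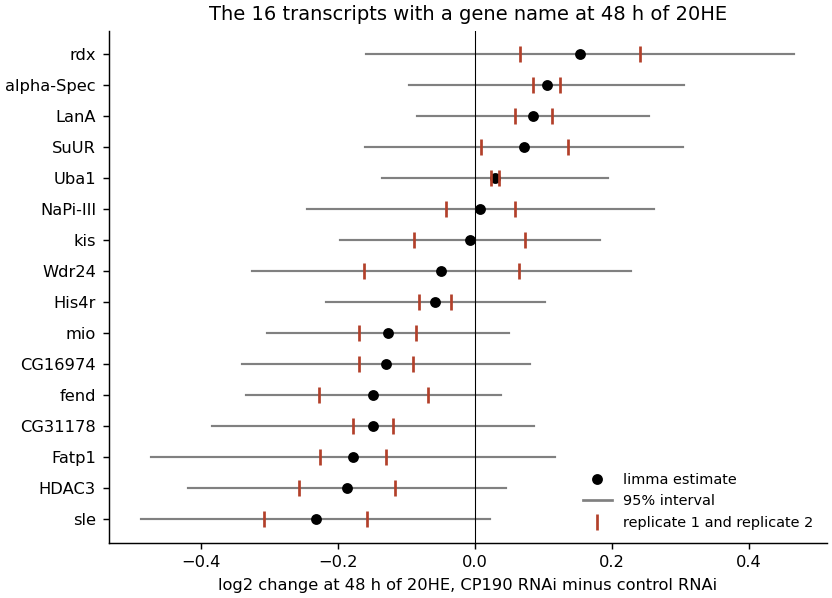
Points give the limma log2 change between CP190 RNAi and control RNAi cells at 48 h of 20HE for the 16 transcripts with a gene name, lines the 95% interval and red ticks the change within replicate 1 and replicate 2. Every interval includes 0, and the estimates run from -0.23 for sle to 0.15 for rdx.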

How the data were processed

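The file that the authors deposited holds linear intensity values, 1 per transcript and array, from Cy3-labelled total RNA on NimbleGen arrays with 8 probes per gene per the labels. RMA was used per the submitters' processing notes; its version, the build and the annotation are not stated in the sources used here.

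Here the log2 of each intensity was taken, with no pseudocount, filter or further normalisation. All 12 arrays entered 1 model of 6 groups (limma 3.58.1, R 4.3.3; lmFit and eBayes, 6 residual degrees of freedom). P-values are two-sided and Benjamini-Hochberg adjusted over 16637 transcripts, separately for each comparison; the threshold was 0.05. The random control was left out of tests. Intervals are 95% and use the moderated t of limma. The fit was tested on simulated data.

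Replicate numbers come from the titles. Differences between replicate 1 and replicate 2 correlated between groups by 0.147 to 0.608 (15 pairs), 0.529 for the 48 h groups. The replicate block therefore treats the numbers as pairing the samples. The main fit leaves the block out, and counts with it are given as an alternative. Labels do not say what same-numbered replicates share. Alternatives changed normalisation, prior, filter, arrays fitted, block and replicates.

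The naming rule took the 2 largest changes in each direction per comparison or set (at 48 h with arrays not overlapping), and genes with a RefSeq name (assembly GCF_000001215.4) that were called or belonged to a list. RefSeq synonyms held 44 identifiers, 16 of 1 gene. Of 18 gene and marker lists, 6 had 1 or 2 named members and 12 had 0, so no list was counted. Comparisons, lists and sets were chosen with earlier results of these data known. No sequences or coordinates were used.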

Additional observations from a re-analysis of the deposited data

Results flagged for a closer look

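The effect of CP190 RNAi differed between times by a direct test for 363 transcripts between 48 h and 0 h, and for 327 between 48 h and 3 h. Among the transcripts named above, the log2 difference from 0 h was 2.34 for FBtr0071865, 2.09 for FBtr0100135 and 1.22 for FBtr0082725, each with a higher effect at 48 h. With a lower effect at 48 h, it was -3.47 for FBtr0084647, -2.97 for FBtr0085612 and -2.49 for FBtr0076243. From 3 h the difference was 2.36 for FBtr0071865, 2.12 for FBtr0086699 and 1.56 for FBtr0082725, and it was -3.46 for FBtr0084647, -3.14 for FBtr0085612 and -2.87 for FBtr0076243. Control RNAi values of FBtr0082725 at 0 h and 3 h lay within 1.5-fold of the random control. So did those of FBtr0085612 on both arrays at 0 h and on the first at 3 h. Single CP190 RNAi arrays of FBtr0071865 at 0 h and 3 h did so too. The part of background in the differences of these transcripts was not tested. Groups hold 2 arrays each, too few for a test of single outlying arrays.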

How the results depend on the processing

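For the 48 h effect, centring each array on its median gave 503 higher and 360 lower transcripts, and quantile normalisation, a trended robust prior, only the 4 arrays at 48 h and leaving out transcripts near the random control gave 721 to 928 in all. The replicate block gave 1654, and with only the 4 arrays at 48 h 3342. That 4-array block fit left the fewest residual degrees of freedom of all and gave FBtr0112532 an adjusted p of 1.59e-243. Its spread is therefore poorly estimated, and its count and calls are not relied on. Leaving out single arrays gave 483 to 623. At 0 h the count was 553 with only the arrays compared, 2614 with the block and 537 to 1452 without single arrays, and at 3 h 2091 with the block and 460 to 731 without single arrays. Centring gave 672 higher and 638 lower at 0 h and 622 and 473 at 3 h, so the balance of directions there moves with the scaling. The difference of effects from 0 h counted 725 with the block and 192 to 290 without single arrays, and from 3 h 760 and 184 to 253. The 3 h response of control cells counted 89 with only the arrays compared, 386 with the block and 135 to 163 without single arrays. Looser limits raised the 5 transcripts that left or entered background to 38. Of 698 single-transcript values, 673 kept their side of the threshold, 19 lost it, 6 gained it and none changed direction while called. They do not cover every named transcript in every comparison, and some of the moves listed next lie outside them. The block brought FBtr0112532 past the threshold for its difference from 3 h too (adjusted p = 0.00703). With the 48 h arrays alone, the fit not relied on, the block also brought past FBtr0083371 (4.09e-04), FBtr0077877 (0.0184) and sle (0.024). In the 12-array fit it also brought past the threshold the 0 h effects of FBtr0085612 (0.0296), FBtr0077877 (0.0144), HDAC3 (0.0173) and mio (0.0246), the 3 h effects of FBtr0086699 (0.00318) and FBtr0100515 (0.0466), and the differences from 3 h of FBtr0081747 (0.0168), FBtr0077877 (0.0069) and CG31178 (0.0111). It changed no other call of a named transcript in the 6 comparisons. The cause of these moves was not tested, beyond fewer arrays in the fits without 1 array. Signal near background limits the dim transcripts.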

Other observations

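Some called transcripts had a neighbour by identifier number that was called too. Of the 863 called at 48 h, 808 have an identifier in the table whose number is 1 away. For 242 such a neighbour was called in the same direction, against 12 with one called in the opposite direction. Among all transcripts 3.17% were called higher and 2.02% lower. How many of all transcripts have a called neighbour was not counted. Merging neighbours by number that were called the same way leaves 729 runs, 444 higher and 285 lower, the longest of 5 transcripts. Over all 12790 pairs of identifiers 1 number apart, the 48 h effects correlated by 0.254. Whether such neighbours belong to 1 gene, share probes or lie side by side in the genome was not tested.

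Across all transcripts the 48 h effect in replicate 1 correlated with that in replicate 2 by 0.806 (Spearman's rho 0.596), values that include the pairing of the replicates.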
